A study of Mus musculus with 4 samples.

Results

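HT22 cells are an immortalised mouse line derived from hippocampal neurons. Here they were compared after 48 h in 70 uM choline chloride (HT22 SUP) and after 48 h in 5 uM choline chloride (HT22 CON). Genes were taken as members when they had at least 200 reads in 1 of the 2 HT22 libraries and a mean hippocampus level below 5 times their mean HT22 level, so that genes of the cell line itself were described. Levels are in CPM, reads per 1000000 reads counted in genes. The rule took 9025 of the 22328 genes in the deposited tables. Another 323 genes had enough reads but lay above the hippocampus bound, and 12980 had too few reads.

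The series also holds 1 hippocampus library from F1m-CON offspring and 1 from F1m-GCS offspring, whose mothers were fed 1.1 and 5 g/kg choline chloride in gestation and whose behaviour was tested at 2 months. These 2 libraries served to set the bound and for values placed side by side. Both HT22 cultures grew in high-glucose medium with fetal bovine serum and antibiotics, so choline chloride at 5 uM is the low dose and not an absence of choline. Each group held 1 library, so no difference has a replicate check, no test of the conditions was possible, and brackets give 95% intervals that cover counting error only. The sources used here do not say how many cultures went into each library.

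Choline enters cells through transporters and is phosphorylated and built into phosphatidylcholine, the main phospholipid of their membranes. It can also be oxidised to betaine, which gives a methyl group to homocysteine and so feeds the methionine cycle that supplies DNA and histone methylation. The title of the series places Nr3c1, the gene of the glucocorticoid receptor, at its centre, and HT22 cells are widely used as a culture model of hippocampal neurons.

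The HT22 CON library held 18305096 reads in genes and the HT22 SUP library 13192007, which were 72.9% and 63.1% of the uniquely mapped reads in the file headers. Member genes held 97.7% and 97.5% of the reads in genes. Genes high in hippocampus and low in HT22 differed between the HT22 libraries. Summed over 644 such genes, levels stood at 0.336% of the hippocampus level in CON and at 0.801% in SUP. Whether this is a trace of hippocampus RNA or low expression in the cells was not tested. For an even trace, the difference of 0.465 percentage points would come to 2.32% of the mean level of a member at the bound. That is 0.03 on the log2 scale. Single genes were uneven, so the shift may be larger for some. Ttr had 0.273 CPM in CON and 2.20 CPM in SUP, against 1669 CPM in F1m-CON hippocampus. Slc1a2 had 49.3 and 118 CPM, against 2229 CPM.

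The label of the HT22 samples, a hippocampal neuron cell, was set against marker genes. Of 16 pan-neuronal markers only Eno2 was a member, and Rbfox3, which encodes the neuronal nuclear antigen NeuN, had 15 reads in CON and 33 in SUP. Summed over the list, the neuronal markers stood at 329 CPM in CON and 371 CPM in SUP, much of it from Eno2. The other 15 summed to 108 CPM in CON and 191 CPM in SUP, and 14 of these were higher in SUP, among them Syn1 at 35.9 and 40.3 CPM and Snap25 at 18.1 and 41.3 CPM. All 10 markers of excitatory and hippocampal neurons were also higher in SUP, with sums of 92.3 and 197 CPM, and 7 of 8 oligodendrocyte markers, with sums of 10.0 and 20.6 CPM. These differences have the direction of the 644 hippocampus genes given above, which include some of these markers, such as Rbfox3. Their cause was not tested. By contrast, 12 of 14 markers of fibroblasts and mesenchymal cells were members, with sums of 12832 and 12055 CPM. Fn1, which encodes fibronectin, stood at 2773 CPM in CON and 2897 CPM in SUP, and Col1a2, a chain of type I collagen, at 2413 and 2159 CPM. Of 10 progenitor markers, Vim, which is also on the mesenchymal list, was a member at 1953 and 1863 CPM. Msi1 had 53 and 37 reads, and each of the others, among them Nes and Sox2, had at most 5 reads in either library. Macrophage markers summed to 53.7 and 54.3 CPM, or 12.1 and 14.1 CPM without Cd14, while Ptprc had 1 read in CON and 0 in SUP. Mesenchymal markers thus stood far above neuronal ones in both libraries, though several neuronal markers were detected, and the cells are called HT22 cells below.

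The sequences upstream of 5 member genes are shown here because their differences recur below. Selenbp1 had the lowest ratio, and Ahnak was the most abundant of the highest genes. Cdkn1a, Ddit4 and Gbp2 stand for the p53, glucocorticoid-responsive and interferon lists. Ddit4 was not on the hypoxia list. Each is the 250 bases before a transcript start, written along the gene, from RefSeq on GRCm38.p6. Capitals mark every match to the motifs searched on both strands.

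Selenbp1, chr3:94932833-94933082, plus strand: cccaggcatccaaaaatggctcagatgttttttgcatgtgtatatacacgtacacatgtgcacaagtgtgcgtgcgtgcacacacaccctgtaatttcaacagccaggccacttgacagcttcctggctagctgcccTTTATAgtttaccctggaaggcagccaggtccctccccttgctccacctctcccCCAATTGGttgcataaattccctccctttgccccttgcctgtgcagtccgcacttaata

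Cdkn1a, chr17:29090729-29090978, plus strand: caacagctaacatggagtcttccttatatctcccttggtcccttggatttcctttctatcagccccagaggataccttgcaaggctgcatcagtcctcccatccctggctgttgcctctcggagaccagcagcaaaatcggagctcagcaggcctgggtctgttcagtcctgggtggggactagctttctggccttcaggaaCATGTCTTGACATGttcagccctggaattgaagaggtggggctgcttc

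Ddit4, chr10:59951771-59952020, minus strand: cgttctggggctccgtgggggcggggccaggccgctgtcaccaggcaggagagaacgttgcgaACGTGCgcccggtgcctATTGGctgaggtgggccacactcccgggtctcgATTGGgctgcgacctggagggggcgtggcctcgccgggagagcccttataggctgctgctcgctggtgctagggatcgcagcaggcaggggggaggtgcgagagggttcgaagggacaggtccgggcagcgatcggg

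Gbp2, chr3:142620413-142620662, plus strand: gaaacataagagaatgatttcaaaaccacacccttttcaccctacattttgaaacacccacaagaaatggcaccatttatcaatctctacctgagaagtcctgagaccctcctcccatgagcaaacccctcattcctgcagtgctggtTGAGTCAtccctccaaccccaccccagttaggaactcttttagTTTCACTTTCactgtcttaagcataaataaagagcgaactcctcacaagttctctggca

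Ahnak, chr19:8989034-8989283, plus strand: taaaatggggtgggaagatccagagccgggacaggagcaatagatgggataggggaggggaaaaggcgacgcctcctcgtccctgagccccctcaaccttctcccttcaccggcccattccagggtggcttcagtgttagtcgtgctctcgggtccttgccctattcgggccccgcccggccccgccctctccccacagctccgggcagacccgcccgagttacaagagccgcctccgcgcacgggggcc

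The motifs searched were those named for NF-kB (GGG, any 2 bases, then TTTCC or TTCCC), ISRE, the interferon response element (TTTC, any 2 bases, TTTC), SREBP (TCACNCCAC), CARE, an ATF4 element (TGATGNAA), ARE, an NRF2 element (TGACNNNGC), AP-1 (TGANTCA), CRE (TGACGTCA), E2F (TTTCCCGC and TTTGGCGC), HIF (ACGTGC), the CCAAT box (CCAAT) and the TATA box (TATAAA). A p53 motif (CATG, any 6 bases, CATG) was added after the data were seen. Matches may overlap, as AP-1, CRE and ARE all begin with TGA. The Cdkn1a window held the p53 letters CATGTCTTGACATG starting 48 bases before the start, and the window of its other listed start held 0 matches. Ddit4 held the HIF letters ACGTGC starting 187 bases before the start and 2 CCAAT boxes on the opposite strand. Gbp2 held the ISRE letters TTTCACTTTC starting 59 bases before the start and AP-1 letters 102 bases before it. Selenbp1 held CCAAT on both strands, overlapping at 59 and 56 bases before the start, and the TATA letters on the opposite strand at 113 bases. Ahnak held 0 matches.

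Over all 27025 promoters of the RefSeq table, read 250 bases before to 50 after the most upstream start, 0.766% held the p53 letters, 5.92% the HIF letters, 3.49% the ISRE letters, 7.92% the AP-1 letters, 14.2% the TATA letters and 10275 promoters the CCAAT letters. The shares for the other motifs ran from 1.22% for SREBP to 12.4% for ARE, with NF-kB at 3.14%. Over the members with a matched promoter, 0.274% held the p53 letters, 8.95% the HIF letters and 2.69% the ISRE letters. The AP-1 letters were held by 4.30% of these members, the TATA letters by 6.15% and the CCAAT letters by 2917 members. Promoters were matched for 7297 of the 9025 members and for 104 of the 147 members called lower below. That is 70.7% of them, under the 80% needed, so the comparison of motif shares between called genes and the rest is void and is not given.

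A member was called higher or lower when its CPM differed by 1.5-fold or more and its counting interval excluded equal levels. By this rule 212 members were higher in SUP, 2.35% of those measured, and 147 were lower, 1.63%. At 2-fold or more 40 were higher (0.443%) and 6 lower (0.0665%). The median log2 ratio of SUP over CON was -0.07, with 3414 members above 0 (37.8%) and 5611 below 0 (62.2%). Scaled instead by all uniquely mapped reads, which include reads outside genes, every ratio was 0.21 lower and the calls were 93 higher and 779 lower, so higher genes made up 10.7% of the calls in place of 59.1%. The directions below are relative to the reads in genes.

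**Figure D1:**
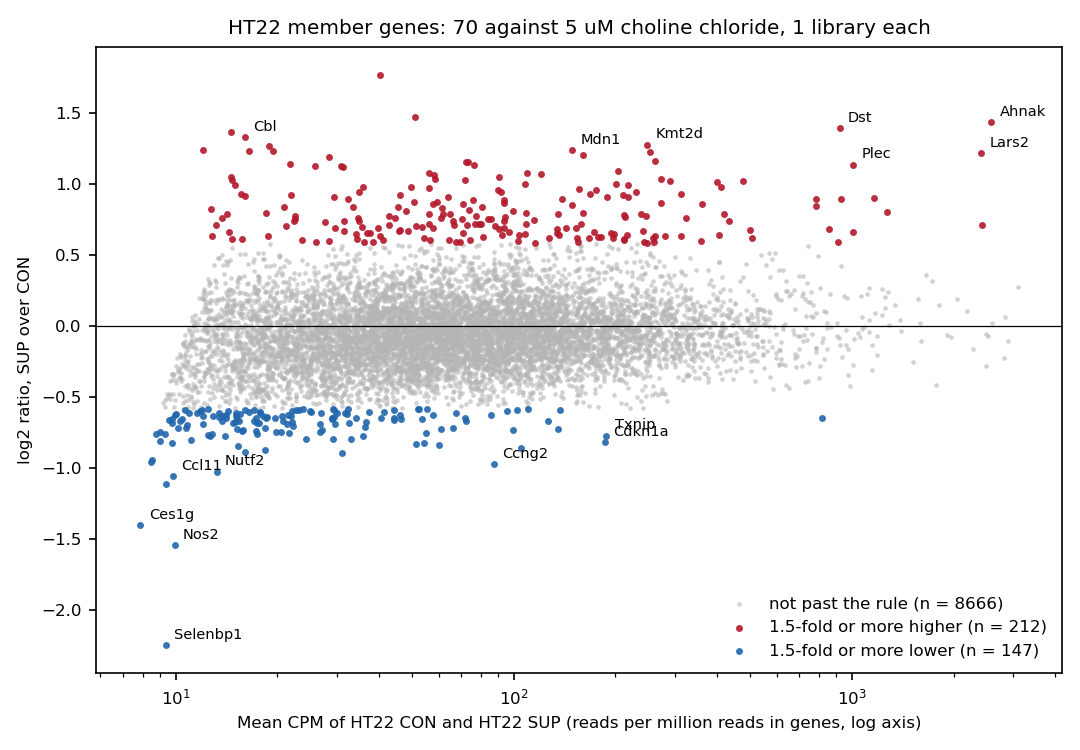
Log2 ratio of HT22 SUP over HT22 CON (vertical axis) against mean CPM of both libraries (horizontal axis, log scale) for 9025 member genes, 1 point each. The 212 genes called higher (red) had a median of 59.1 CPM in CON and reach up to Ahnak and Lars2, while the 147 called lower (blue) had a median of 24.8 CPM in CON.

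The read minimum bears on the lower calls, since the CON library was deeper: 200 reads were 10.9 CPM in CON and 15.2 CPM in SUP. Members with at least 200 reads in CON alone numbered 585 and held 73 of the 147 lower calls. Members with at least 200 reads in SUP alone numbered 13, and all were called higher. With at least 200 reads in both libraries, 8427 genes remained, with 199 higher and 74 lower, and none of the 6 genes that were 2-fold lower was among them. Genes just inside the read minimum, from 200 to under 220 reads, had a median of -0.13 with 3 higher and 9 lower of 128. Those just outside it, from 180 to under 200 reads, had a median of -0.09 with 6 and 11 of 123. At the hippocampus bound, the 130 members at 4 to 5 times the HT22 level had a median of -0.02, with 3 higher and 3 lower. The 81 genes at 5 to 6 times had -0.10, with 4 higher and 1 lower. All 323 genes above the bound had 49 higher (15.2%) and 6 lower (1.86%).

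The highest ratios belonged mainly to genes of very large proteins. Ahnak, which encodes a giant scaffold protein under the plasma membrane, had 25579 reads (1397 CPM) in CON and 49702 reads (3768 CPM) in SUP, a log2 ratio of 1.43 (1.41 to 1.45), or 2.70-fold. Dst, the cytoskeletal linker dystonin, had 9302 and 17573 reads, 508 and 1332 CPM, and a log2 ratio of 1.39 (1.35 to 1.43). Both genes were among the most abundant in the cells, so their counting intervals were narrow. Plec, the linker plectin, had 631 and 1384 CPM and 1.13 (1.10 to 1.17). Kmt2d, a histone H3 lysine 4 methyltransferase, had 145 and 352 CPM and 1.27 (1.21 to 1.34). Map1b, a microtubule-associated protein, had 151 and 354 CPM and 1.22 (1.16 to 1.29). Mdn1, Akap9, Syne2, Tnrc18, Crebbp and Utrn completed this group of long genes, with log2 ratios from 1.09 for Utrn to 1.23 for Mdn1.

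A few of the 15 highest were not long by their listed coding length. Lars2, the mitochondrial leucyl-tRNA synthetase, with 2709 coding bases, had 26556 reads (1451 CPM) in CON and 44380 reads (3364 CPM) in SUP and a log2 ratio of 1.21 (1.19 to 1.24). Cbl, a ubiquitin ligase that acts on growth factor receptors, had 167 and 302 reads and 1.33 (1.05 to 1.61). Cdr1 had 149 and 277 reads and 1.37 (1.08 to 1.66), and a gene on the opposite strand overlaps its exons, so its reads are uncertain. Srcap, a chromatin remodeller, is split in the table over 2 gene rows: 1 had 497 and 993 reads and 1.47 (1.31 to 1.63), the other 1042 and 783 reads and 0.06 (-0.08 to 0.20), so its ratio is uncertain too. Exons of genes on the opposite strand also overlap Akap9, Dst, Glipr1, Bhlhe40, Cdkn1a, Txnip and Ndrg1, and without strand the reads of such pairs cannot be told apart.

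**Figure D2:**
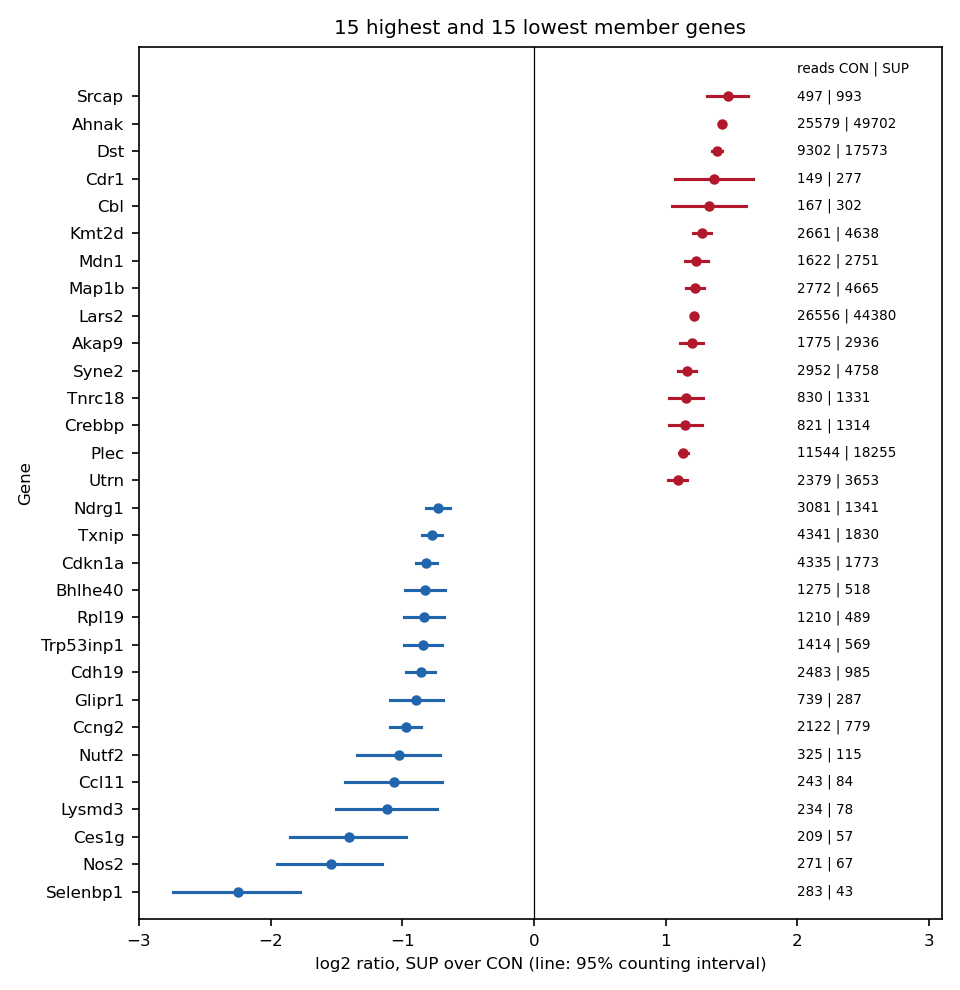
Log2 ratio of SUP over CON with 95% counting intervals for the 15 highest and 15 lowest member genes, with the reads of each library at the right. The higher genes run from Utrn at 1.09 to Srcap at 1.47, and the lower ones from Ndrg1 at -0.73 to Selenbp1 at -2.25, with wide intervals where reads are few.

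The lowest ratio was that of Selenbp1, a selenium-binding methanethiol oxidase, with 283 reads (15.5 CPM) in CON and 43 reads (3.26 CPM) in SUP, a log2 ratio of -2.25 (-2.74 to -1.78). Mice have a near-identical copy of this gene, so its reads are uncertain. Nos2, the inducible nitric oxide synthase, had 271 and 67 reads and -1.54 (-1.95 to -1.15). Ces1g, a carboxylesterase in a cluster of similar genes and uncertain for that reason, had 209 and 57 reads and -1.40 (-1.85 to -0.97). Lysmd3, a LysM domain protein, and Ccl11, the chemokine eotaxin, followed at -1.11 and -1.06. These genes, with Nutf2 at -1.03, are the 6 that were 2-fold lower, and each had under 200 reads in SUP.

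Among lower genes with many reads in both libraries, Ccng2, a cyclin linked to cell cycle arrest, had 2122 reads (116 CPM) in CON and 779 reads (59.1 CPM) in SUP, a log2 ratio of -0.97 (-1.09 to -0.85). Cdh19, a cadherin, had 136 and 74.7 CPM and -0.86 (-0.97 to -0.75). Cdkn1a, the cell cycle inhibitor p21, had 237 and 134 CPM and -0.82 (-0.90 to -0.74). Txnip, which binds thioredoxin and limits glucose uptake, had 237 and 139 CPM and -0.77 (-0.85 to -0.69). Glipr1, Trp53inp1, Bhlhe40 and Ndrg1 lay between -0.73 and -0.89. Rpl19, a ribosomal protein gene with processed copies and therefore uncertain, had 1210 and 489 reads and -0.83 (-0.99 to -0.68).

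Higher and lower genes differed in coding length. The median coding length was 5961 bases for the genes called higher, 1236 for those called lower and 1404 over all members. Of the 246 members with 6000 coding bases or more, 104 were called higher (42.3%) and 0 lower, with a median log2 ratio of 0.52. Of the 7717 under 3000 bases, 38 were called higher and 141 lower, with a median of -0.09. The longest of 10 equal groups of members, from 3546 to 23154 bases, held 159 of the 212 higher calls and had a median of 0.25, while the medians of the other groups lay between -0.13 and 0.00. Genes with over 40 exons, 170 in number, had a median of 0.41, and the 155 genes with 1 exon had -0.12.

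**Figure D3:**
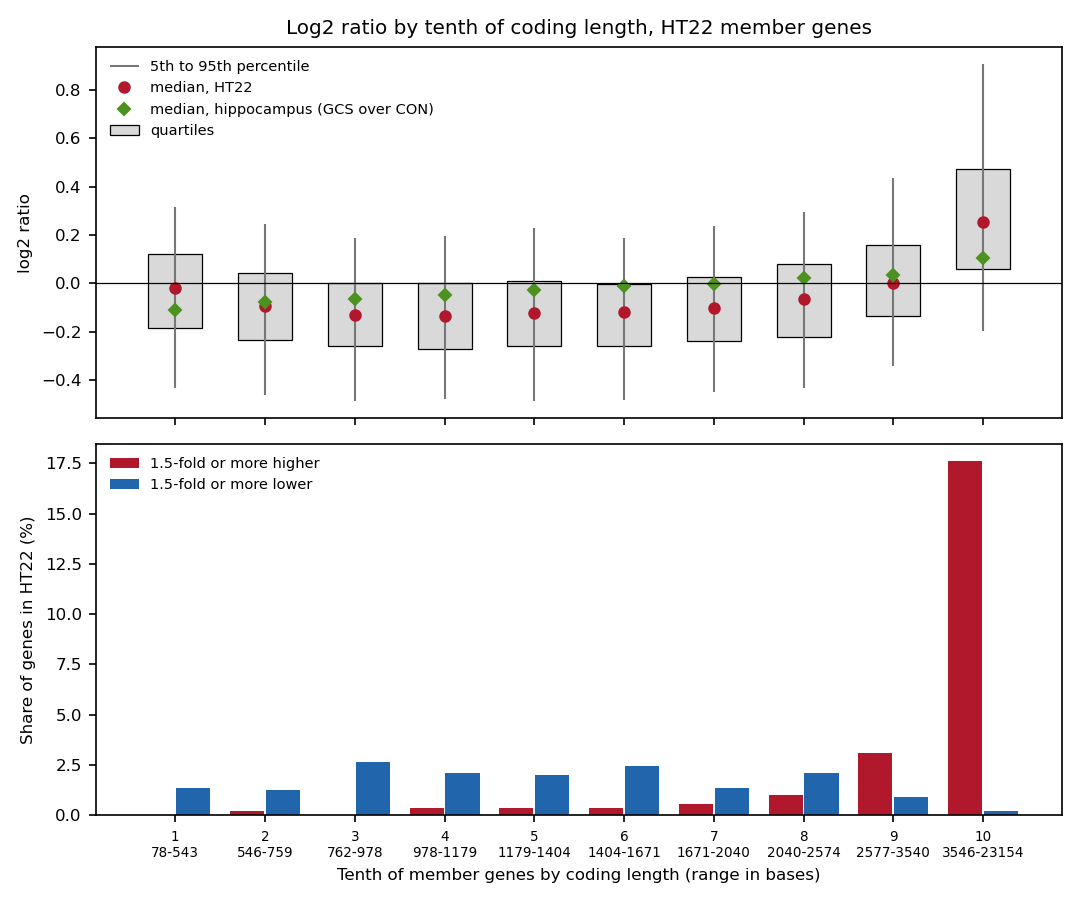
Upper panel: log2 ratio in 10 equal groups of member genes by coding length, as HT22 medians (red), quartiles (boxes) and 5th to 95th percentiles (lines), with the median of the same genes in hippocampus (green). Lower panel: share of each group called higher or lower in HT22. The HT22 median stays between -0.13 and 0.00 up to the group of 2577 to 3540 bases and is 0.25 in the longest.

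Across genes, which are not independent replicates and here share both libraries, the rank correlation of the log2 ratio was 0.23 with coding length, 0.21 with exon count, 0.18 with the GC content of the transcript and 0.16 with mean CPM. With the median of the same group of coding length subtracted, 133 genes were higher and 80 lower. Of the original calls, 114 of the 212 higher and 68 of the 147 lower were kept. The longest group, from 3546 to 23154 bases, had a single median of 0.25 subtracted, while members of 6000 bases or more had 0.52. Length differences within that group therefore stay in the corrected values. RNA integrity values were not analysed here, and the part of length, RNA quality or the lower share of reads in genes in SUP in these ratios was not tested.

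A pair of lists was made of very long genes, so their counts restate the length pattern by gene family. Of 23 giant cytoskeletal linkers, 19 were higher (82.6%, against 2.35% of all members) and 0 lower, with a median of 0.89. Besides Ahnak, Dst and Plec they included Dync1h1, the heavy chain of cytoplasmic dynein, at 549 and 1020 CPM with a log2 ratio of 0.89 (0.86 to 0.93), and Macf1, which joins actin to microtubules, at 559 and 1004 CPM with 0.84 (0.81 to 0.88). With length subtracted, 14 were higher and the median was 0.64. The median coding length of this list was 8835 bases, and the correction does not take out length within the longest group. Of 29 giant ubiquitin ligases and membrane traffic proteins, 18 were higher (62.1%) and 0 lower, with a median of 0.76. Huwe1, a ubiquitin ligase, had 651 and 1210 CPM and 0.89 (0.86 to 0.93), and Lrp1, an endocytic receptor, had 927 and 1613 CPM and 0.80 (0.77 to 0.83), a call lost with length subtracted. With that correction, 10 of this list were higher and the median was 0.50.

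Several large chromatin regulators were higher in SUP. Of 31 rows for chromatin remodellers and coactivators, 2 of them Srcap, 9 were higher (29%, against 2.35% of all members) and 0 lower. All 31 ratios lay above 0, against 37.8% of all members, with a median of 0.49. Crebbp, the histone acetyltransferase CBP, had 44.9 and 99.6 CPM and a log2 ratio of 1.15 (1.02 to 1.28), and Atrx, a heterochromatin remodeller, had 265 and 535 CPM and 1.01 (0.96 to 1.07). Smarca4, the motor subunit BRG1, had 147 and 177 CPM and 0.27 (0.19 to 0.35), which was not called. Of 35 histone lysine methyltransferases and demethylases, 6 were higher (17.1%) and 0 lower, with a median of 0.25. The 6 were Kmt2d, Kmt2a, Kmt2c, Ash1l, Setd1b and Kmt2e, most of them writers of histone H3 lysine methylation, and Kmt2a had 116 and 220 CPM and 0.93 (0.84 to 1.01). With length subtracted, 5 genes of each list were higher, and the medians were 0.24 and 0.07. The limit of that correction within the longest group applies here too.

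The enzymes that use choline were not called in either direction. Of 25 genes for choline uptake and phospholipid synthesis, 0 were higher and 0 lower, with a median of -0.11 against -0.07 over all members. The choline transporter-like genes Slc44a1 and Slc44a2 had 124 and 102 CPM, and 173 and 133 CPM, with log2 ratios of -0.29 (-0.39 to -0.19) and -0.38 (-0.46 to -0.29). Chka, the choline kinase that starts phosphatidylcholine synthesis, had 134 and 148 CPM and 0.14 (0.06 to 0.23). Pcyt1a, which catalyses the rate-limiting step of that pathway, had 142 and 132 CPM and -0.11 (-0.20 to -0.02). The value farthest from 0 was that of Pla2g15, a lysosomal phospholipase, at 49.9 and 34.0 CPM and -0.55 (-0.72 to -0.39).

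The methyl cycle held 1 call in each direction among 23 genes, with a median of -0.10. Of the 34 listed genes 10 had too few reads. Among these, Bhmt, Bhmt2 and Dmgdh, genes of the betaine part, had 0 reads in both HT22 libraries, so that part was not measured through them. Mtr, methionine synthase, had 469 reads (25.6 CPM) in CON and 573 reads (43.4 CPM) in SUP, a log2 ratio of 0.76 (0.58 to 0.94), and was not called with length subtracted or with scaling by uniquely mapped reads. Mthfd2l, a mitochondrial folate enzyme, had 19.6 and 11.8 CPM and -0.74 (-1.02 to -0.46), with 155 reads in SUP. Mat2a, which makes S-adenosylmethionine, had 379 and 347 CPM and -0.13 (-0.18 to -0.07). Of 18 genes of DNA methylation and its readers none was called, with a median of 0.04, which became -0.17 with scaling by uniquely mapped reads. Dnmt1, the maintenance methyltransferase, had 349 and 385 CPM and 0.14 (0.09 to 0.19), and Dnmt3a, a de novo methyltransferase, had 57.4 and 74.7 CPM and 0.38 (0.25 to 0.51).

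Nr3c1 had 1939 reads (106 CPM) in CON and 1123 reads (85.1 CPM) in SUP, a log2 ratio of -0.32 (-0.42 to -0.21), and was not called. Of 17 corticosteroid receptors, chaperones and cofactors none was called, with a median of 0.16, which was -0.05 with scaling by uniquely mapped reads. The corepressor Ncor1 had the ratio farthest from 0, at 189 and 271 CPM with 0.52 (0.45 to 0.59). Of 19 glucocorticoid-responsive genes 0 were higher and 3 lower (15.8%, against 1.63% of all members), with a median of -0.31. The 3 were Cdkn1a, Ddit4 and Dusp1. Ddit4, an inhibitor of mTORC1 signalling, had 76.1 and 46.0 CPM and -0.73 (-0.87 to -0.59), and Dusp1, a MAP kinase phosphatase, had 22.7 and 14.6 CPM and -0.64 (-0.90 to -0.39). Sgk1, a kinase induced by glucocorticoids, had -0.35 (-0.42 to -0.29), and Per1, a clock gene, had 0.19 (0.05 to 0.32). With at least 200 reads in both libraries 2 of the list were lower, since Dusp1 had 192 reads in SUP.

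The p53 targets lay below 0 almost throughout. Of 26 genes 25 had ratios below 0, against 62.2% of all members, with a median of -0.34. Calls numbered 3 lower (11.5%, against 1.63% of all members) and 0 higher. Eda2r, a death-domain receptor, had 20.8 and 11.2 CPM and a log2 ratio of -0.89 (-1.18 to -0.61), Trp53inp1, a stress protein, had 77.2 and 43.1 CPM and -0.84 (-0.98 to -0.70), and Cdkn1a is given above. Mdm2, the ubiquitin ligase of p53, had 139 and 99.9 CPM and -0.47 (-0.57 to -0.38). Ccng1, a cyclin, had 326 and 233 CPM and -0.48 (-0.55 to -0.42). Eda2r had 381 and 148 reads and was a member through CON alone, and with at least 200 reads in both libraries 2 of the list were lower. With length subtracted the median was -0.24 and 3 genes were lower.

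Hypoxia and glycolysis genes gave 4 lower (14.3%, against 1.63% of all members) and 0 higher of 28, with a median of -0.30. Ndrg1, which hypoxia induces, had 168 and 102 CPM and a log2 ratio of -0.73 (-0.82 to -0.63). Pdk1, a kinase that holds back pyruvate dehydrogenase, had 124 and 74.6 CPM and -0.74 (-0.85 to -0.63). Plod2, a collagen lysyl hydroxylase, had 1510 and 660 reads and -0.72 (-0.86 to -0.59). Ankrd37 had 214 and 91 reads and -0.76 (-1.13 to -0.40), and was a member through CON alone, which bears on its lower call. Vegfa, the angiogenic growth factor, Slc2a1, the glucose transporter GLUT1, and Ldha, lactate dehydrogenase, had -0.39, -0.35 and -0.31 and were not called. With length subtracted 4 genes were lower and the median was -0.23. Pdk1 was not called with the correction for both length and GC.

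Inflammatory and interferon genes were also on the lower side. Of 25 NF-kB targets and inflammatory mediators 2 were lower (8%, against 1.63% of all members) and 0 higher, with a median of -0.21. These were Nos2 and Il1a, the cytokine interleukin 1 alpha, which had 402 and 171 reads and -0.76 (-1.03 to -0.50), and neither had 200 reads in SUP. Il6, the cytokine interleukin 6, had 31.5 and 21.6 CPM and -0.54 (-0.75 to -0.34), and the chemokine Ccl2 had 646 and 575 CPM and -0.17 (-0.21 to -0.13). Of 17 interferon response and antigen presentation genes 3 were lower (17.6%) and 0 higher, with a median of -0.33. Gbp2, an interferon-induced GTPase, had 470 and 202 reads and -0.75 (-0.99 to -0.50), Xaf1 had -0.66 (-1.02 to -0.31), and Tap1, a peptide transporter, had -0.64 (-0.89 to -0.38). With length subtracted 1 of these was lower, and with at least 200 reads in both libraries 1 was.

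The list with the lowest median, -0.42, was complement, serpins and the plasminogen system. Of its 18 members 4 were lower (22.2%, against 1.63% of all members) and 0 higher. Serpinb9, a granzyme B inhibitor, had 19.6 and 10.9 CPM and a log2 ratio of -0.85 (-1.13 to -0.56). C4b, a complement component, had 18.5 and 11.5 CPM and -0.68 (-0.97 to -0.40). Plat, tissue plasminogen activator, and Hp, haptoglobin, had -0.61 (-0.77 to -0.44) and -0.60 (-0.71 to -0.49). Serpinb9, with 359 and 144 reads, and C4b, with 338 and 152 reads, were members through CON alone. With length subtracted the median was -0.34, and Plat and Hp were no longer called.

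**Figure D4:**
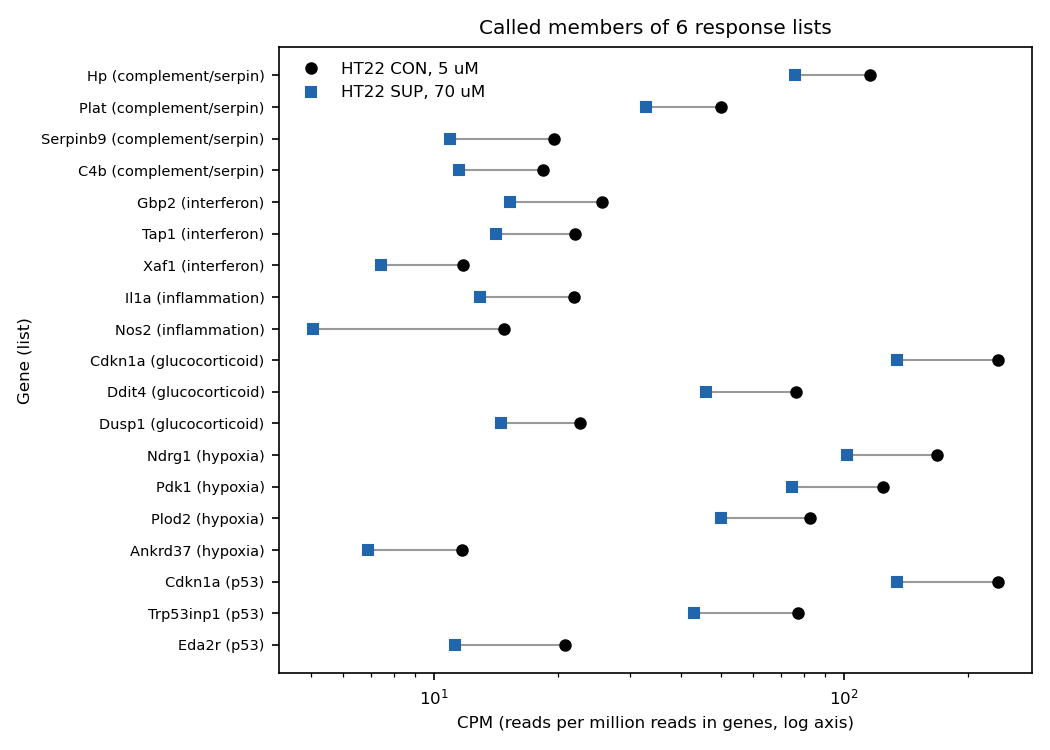
CPM in HT22 CON (black circles) and HT22 SUP (blue squares), on a log axis, for the called members of 6 response lists, named in parentheses. Every one of these members was lower in SUP, from Nos2 at 14.8 and 5.08 CPM to Cdkn1a, which is on both the p53 and the glucocorticoid list, at 237 and 134 CPM.

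Growth and division gave a mixed picture. Of 32 mitosis genes 4 were higher (12.5%, against 2.35% of all members) and 0 lower, with a median of -0.04. All 4 lie in the longest of the 10 groups by coding length. Cenpe, a kinetochore motor, had 276 and 543 CPM and a log2 ratio of 0.98 (0.92 to 1.03), Cenpf, a kinetochore protein, had 215 and 408 CPM and 0.92 (0.86 to 0.98), Kif20b had 0.76 (0.69 to 0.83) and Mki67, the proliferation antigen Ki-67, 0.59 (0.55 to 0.62). The shorter mitotic genes Ccnb1 and Plk1 had -0.09 (-0.21 to 0.03) and -0.04 (-0.16 to 0.08), whose intervals include 0. Kif20b and Mki67 were not called with length subtracted or with scaling by uniquely mapped reads. Of 33 DNA replication genes none was called, with a median of -0.18, and Pcna, the replication clamp, had -0.40 (-0.50 to -0.31). Bhlhe40, a circadian repressor at -0.83 (-0.98 to -0.68), was the only call among 12 clock genes. Of 21 immediate early genes, which growth factors induce within minutes, 2 were lower (9.52%, against 1.63% of all members). These were Dusp1 and Jun, and the list median was -0.22. Neither was called with length subtracted, and Jun was not called with TMM or DESeq2 scaling either.

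Lipid genes were called singly. Fasn, fatty acid synthase and a long gene, had 400 and 614 CPM and a log2 ratio of 0.62 (0.57 to 0.66), the only call among 20 genes of fatty acid synthesis. No call was made among 23 genes of sterol synthesis, with a median of -0.12, or 23 of fatty acid oxidation, with -0.17. Lipa, the lysosomal acid lipase, had 89.0 and 55.9 CPM and -0.67 (-0.80 to -0.55). Among other matrix genes, Hspg2, perlecan, had 179 and 366 CPM and 1.03 (0.97 to 1.09) and Fbn1, fibrillin 1, 0.63 (0.57 to 0.69), while Dcn, the small proteoglycan decorin, had 993 and 635 CPM and -0.65 (-0.68 to -0.61). The calls of Fasn, Fbn1, Lipa and Dcn were lost with length subtracted, and Fasn and Fbn1 also with scaling by uniquely mapped reads.

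Genes of stable cell machinery showed few calls. The 73 cytosolic ribosomal protein genes had a median of 0.11, the 69 respiratory chain genes 0.10 and the 35 proteasome genes 0.03, and all 3 medians fell below 0 with scaling by uniquely mapped reads. Their only calls were Rpl19 and Rps7, which had 132 and 224 reads and 1.24 (0.92 to 1.56) and, like Rpl19, has processed copies. No gene was called among 29 ATF4 targets, 22 unfolded protein response genes, 20 listed cytosolic aminoacyl-tRNA synthetases and 16 genes of metal handling. Their medians ran from -0.11 to 0.00. Outside the synthetase list, mitochondrial Lars2 was higher, as given above, and Tarsl2 was lower at -0.59 (-0.82 to -0.37). Igf1r and Irs1, the receptor and adaptor of insulin-like growth factor signalling, had 0.72 (0.58 to 0.86) and 0.82 (0.52 to 1.12), among 10 genes of that system. Irs1 had 169 and 215 reads, so it was a member through SUP alone. Neither gene was called with length subtracted, and Igf1r was not called with scaling by uniquely mapped reads.

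**Figure D5:**
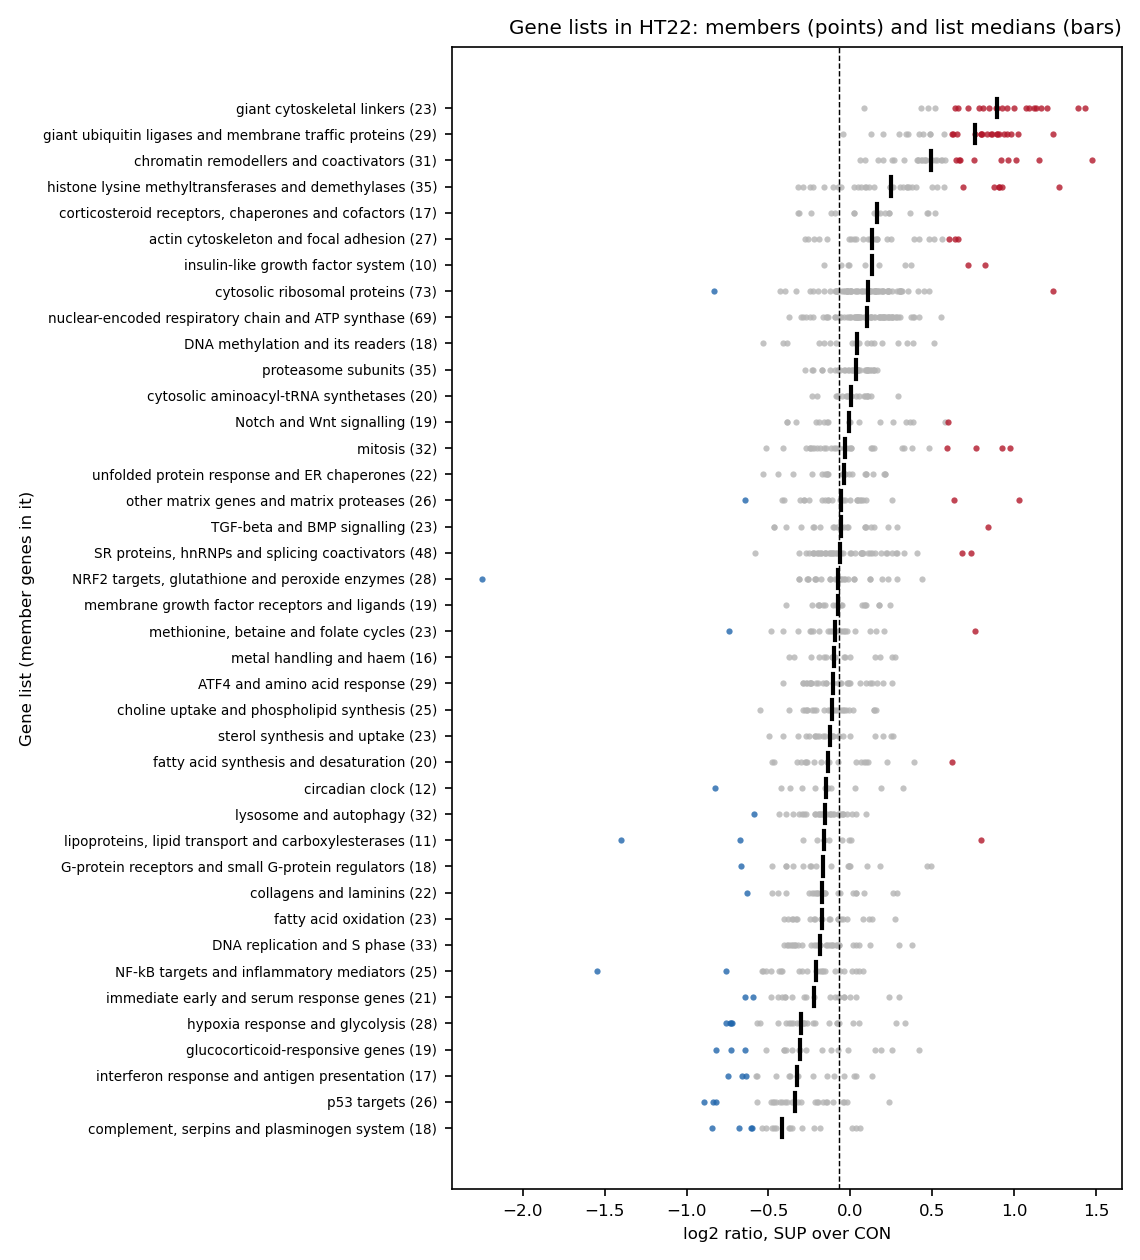
Log2 ratio of SUP over CON for the members of 40 gene lists, 1 row each with the number of members in parentheses; points are genes (red called higher, blue called lower, grey neither), bars are list medians and the dashed line is the median of all members, -0.07. The 4 highest medians, 0.25 to 0.89, belong to lists of long genes, and the 5 lowest, -0.30 to -0.42, include the p53, interferon and hypoxia lists.

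The same genes were placed beside the 2 hippocampus libraries, which share no library with HT22. Among 8089 members with at least 200 reads there, 61 were higher in F1m-GCS (0.754%) and 8 lower (0.0989%), with a median of -0.02, 3578 above 0 and 4511 below. The 198 of them called higher in HT22 SUP had a hippocampus median of 0.20, with 186 above 0 and 11 called higher. The 112 called lower in HT22 SUP had a median of -0.03, with 47 above and 65 below 0, close to the values over all 8089, and 1 called in each direction. Hippocampus ratios also ran with coding length, from -0.11 in the shortest of the 10 groups to 0.11 in the longest. Among members under 3000 bases, the hippocampus median was 0.309 for the 33 called higher in HT22 SUP. It was -0.034 for the 109 called lower and -0.035 over all 6886. The part of length in these values was not tested. Single genes went either way. Mdn1 had 0.46 (0.37 to 0.55) in hippocampus and 1.23 in HT22, and Cdkn1a had -0.16 (-0.44 to 0.12) and -0.82. Nr3c1 had 0.26 (0.19 to 0.33) in hippocampus against -0.32 in HT22, Cdh19 had 0.72 (0.35 to 1.09) against -0.86, and Trp53inp1 had 0.29 (0.11 to 0.47) against -0.84.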

How the data were processed

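Trim Galore, TopHat2 (mm10) and HTSeq were the authors' tools for trimming, alignment and counting read pairs, per the design text. The submitters' processing notes add CASAVA 1.8 without its role, and the sources used here give no other version. Values are the deposited raw counts, described as such in the file headers. The other column used is the authors' gene length. As 99.8% of the lengths of protein-coding genes are multiples of 3, it is called coding length here.

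Counts were divided by each library's total over genes, with no prior count. Intervals are exact conditional (Clopper-Pearson) 95% intervals from scipy 1.17.1 and cover counting error only. No count test was run across conditions, since each group held 1 library. TMM factors came from edgeR 4.0.16 and size factors from DESeq2 1.42.0 in R 4.3.3, as alternatives. Counts of 9302 HT22 genes were also simulated. The call rule found 34 of 34 genes with a true 2-fold increase and 0 of 34 with a 1.25-fold increase. The interval held the true ratio for 95.0% of unchanged genes. Spread between cultures is unknown, so these values bear on counting error only. Recovery was not broken down by read level, so it does not show how the rule performs on genes with few reads in SUP.

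The members, the 40 gene lists and the 10 marker lists were chosen with earlier results of these data known, as were the length thresholds. The rule for named genes took Nr3c1, then 15 members from each end when ranked by the bound of the interval closest to 0 (symbols of the Gm and Rik kind left out), then the 4 most extreme ratios in each list. Other names were chosen after their values were seen. A result that this rule takes is not reported here. Gene symbols are those of the deposited tables, and GC content and exon counts come from GENCODE M21.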

Additional observations from a re-analysis of the deposited data

How the results depend on the processing

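The 212 higher and 147 lower calls became 220 and 129 with TMM scaling, 224 and 124 with DESeq2 size factors, and 212 and 140 with a prior count of 2. Scaling by uniquely mapped reads gave 93 and 779, and at 2-fold 14 and 24 in place of 40 and 6. Subtracting the median of the same of 10 groups by coding length gave 133 and 80, with 18 higher at 2-fold, and 10 groups by length with 5 by GC gave 134 and 86, with 17 and 3 at 2-fold. Minimums of 1, 50 and 500 reads gave 480 and 374, 294 and 304, and 178 and 63, and at 2-fold 233 and 108, 67 and 46, and 30 and 0. Without a hippocampus bound 66 genes were 2-fold higher. With the whole interval beyond 1.5-fold, 129 were higher and 25 lower. After the data were seen, 200 reads in both libraries were required, which left 74 lower and 0 at 2-fold, and a mean of 200 reads, which left 1 at 2-fold lower. Fewer genes enter under stricter minimums, and for the other changes the cause was not tested.

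Of 42 named genes called higher and 36 called lower, 29 and 26 were still called after the length correction, 30 and 36 with uniquely mapped reads, and 42 and 33 with DESeq2 size factors. None of the called named genes changed sign in the alternatives run for them. No paired analysis was possible because each group held 1 library. Counting error limits genes near 200 reads most, and the spread between cultures is unknown.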
